A study of Mus musculus with 14 samples.

Results

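The comparison described here set livers of mice with both copies of Lmna floxed against livers of mice with 1 floxed copy, in mice kept on standard chow. It used 6 of the 14 arrays of the series, all arrays with those labels. The 3 KO livers came from LMNA flx/flx; Alb-cre+ mice, in which both copies of Lmna are floxed, and these mice were 38.9 weeks old. The 3 HET livers came from LMNA flx/+; Alb-cre+ mice, with 1 floxed copy, aged 26.4, 26.4 and 24 weeks. All mice of the series were C57BL/6 males and carried the Alb-cre transgene, whose albumin promoter confines Cre mainly to hepatocytes. Which other liver cells kept their Lmna was not measured, and each array measured whole liver. Beside these stood 2 WT livers on chow (LMNA +/+; Alb-cre+, aged 24.6 and 27 weeks) and 3 KO and 3 HET livers on HFD, a Surwit diet with sugared water (aged 35.3 weeks for KO and 30 to 30.4 weeks for HET). Both diets were given for 14 weeks, and every liver was 1 mouse on 1 array. KO mice on chow were on average 13.3 weeks older than HET mice on chow, while ages within a group spanned at most 2.4 weeks, so genotype and age cannot be told apart in this comparison.

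Lamin A and lamin C, both encoded by Lmna, form part of the protein mesh under the inner nuclear membrane that holds the nucleus in shape and tethers chromatin. Several groups of genes considered here have well described roles. Cells that detect foreign or misplaced nucleic acid through RNA helicases such as RIG-I, or through DNA sensors, make type I interferon. Interferon then acts through its receptor on the promoters of interferon-stimulated genes, many of which hold a repeated GAAA element. Other groups considered are those of lipid droplet formation, of the NRF2 response to oxidants, of cell division, and of the sex-specific programme that growth hormone pulses maintain in mouse hepatocytes.

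Values are log2 intensities. They are listed for KO arrays in the order H1, H2 and I1 and for HET arrays in the order F1, F2 and P1, the names the labels give. Differences are KO minus HET on the log2 scale with the standard error from limma, and a gene was called at a Benjamini-Hochberg adjusted p under 0.05 over 22180 genes. "Rose" and "fell" are used only for called genes. Of all genes tested 1.92% were called, with 1.44% higher and 0.478% lower in KO livers. In all 232 of the 426 called genes differed at least 2-fold, and the median difference over all genes tested was -0.01. Of the 426 calls 75.1% were higher in KO livers, but with each array centred on its median, which shifts all differences by -0.12, 509 genes were called and 48.7% of them were higher. In both settings 354 of the 426 were called in the same direction. The count of 426 was 215 without H2, 202 without I1, 258 without F1 and 199 without F2. The lowest KO and highest HET array, or the reverse, did not overlap for 18.9% of all genes, so non-overlap alone is common here. The array medians over all probe sets were 2.21 to 2.30, and a value near or under them is close to background, which leaves the size of a fold uncertain. Arrays can carry signal from close relatives, which touches the Oas1, Gbp, Ifi27, H2, Orm, Hsd3b, Cyp2b, Cyp2d, C4 and Ly6 families. Lmna itself read 4.09, 3.78 and 3.67 in KO livers, against 4.29, 4.40 and 4.25 in HET livers. The groups did not overlap, but the difference of -0.47 ± 0.12 was not called (adjusted p = 0.0823), and with single arrays left out it was called only without KO array H1 (adjusted p = 0.0253). Whether the Lmna probe set lies inside the floxed part was not checked here, and whole liver holds other cells that may keep Lmna, so this value does not measure the deletion. Of the 15 measured genes of the nuclear lamina list, limma called 0, and 5 had an unadjusted p under 0.05 (2968 of all 22180 genes did).

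KO livers held more mRNA of interferon-stimulated genes than HET livers. In 8 lists of the interferon response, 65 of 114 measured genes rose and 0 fell, with a median difference of 0.98 over all 114. Of the 30 largest rises among all genes, 11 belonged to these lists. With single arrays left out 52 to 62 of the 114 rose, and 37 rose without HET arrays F1 and F2 together. The 2 WT arrays lay below all 3 KO arrays for 64 of the 65 called genes, the exception being Trim21, for which WT read 6.46 and 6.34. These genes were chosen by their KO against HET call, and the share over all genes was not computed. WT mice were, like HET mice, younger than KO mice. With age as a linear term, added after seeing the data, the standard error was 6.33 times larger in the median gene. Of the 114 genes 2 were then called, 1 of them among the 65, and 58 of the 65 differences stayed positive. The 65 were chosen as positive, and genotype and age nearly coincide, so these counts cannot separate age from genotype.

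The promoters of these genes are shown first, because the double GAAA element is what proteins of the IRF family are known to bind. Windows of 300 bases (250 before and 50 after the annotated start) were taken from RefSeq on GRCm38.p6 and matched by gene ID. The motif GAAANNGAAA, searched on both strands, lay in 24 of the 50 interferon-list genes that rose and have a window, which is 48.0%. It lay in 12 of 36 interferon-list genes that were not called, in 3.88% of all 16918 tested genes with a window, and in 3.44% of all 32851 windows. Among the 194 genes with a window that rose outside these lists it lay in 8.25%, and among 79 that fell in 2.53%. A match is a description of the letters and does not show a bound site. For each list, the gene with the largest rise whose window holds the motif is printed, on the strand of the gene from 5′ to 3′. This choice leaves out genes with larger rises in the same lists. Among them, Oasl2, Ubd and Irf7 have a window without the motif, and Ifi27l2b and Usp18 have no window. Isg15 and Ifit1 are given in full and the other printed genes as the stretch around the motif. Capitals mark each match on either strand, which reads as GAAA pairs or, on the opposite strand, as TTTC pairs.
Isg15, chr4:156200769-156201068, minus strand: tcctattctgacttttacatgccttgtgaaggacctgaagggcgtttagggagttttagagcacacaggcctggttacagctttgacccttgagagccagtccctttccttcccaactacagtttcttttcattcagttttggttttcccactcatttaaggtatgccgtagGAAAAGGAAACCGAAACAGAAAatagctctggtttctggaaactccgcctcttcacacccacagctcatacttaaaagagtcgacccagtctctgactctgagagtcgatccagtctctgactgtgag
Ifit1, chr19:34640639-34640938, plus strand: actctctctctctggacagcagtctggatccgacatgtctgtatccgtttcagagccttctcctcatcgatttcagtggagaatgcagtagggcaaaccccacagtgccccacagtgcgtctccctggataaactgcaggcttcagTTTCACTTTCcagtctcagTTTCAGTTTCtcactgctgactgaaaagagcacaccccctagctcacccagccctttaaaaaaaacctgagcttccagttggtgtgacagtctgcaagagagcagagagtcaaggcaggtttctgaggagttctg
Ddx60, chr8:61928009-61928102, plus strand: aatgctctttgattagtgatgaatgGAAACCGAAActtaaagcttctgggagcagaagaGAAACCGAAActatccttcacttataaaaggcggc
Stat2, chr10:128270251-128270310, plus strand: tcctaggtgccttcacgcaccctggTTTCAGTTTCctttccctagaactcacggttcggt
Oas1g, chr5:120887591-120887656, minus strand: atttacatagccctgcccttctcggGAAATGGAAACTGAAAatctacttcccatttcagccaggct
Rsad2, chr12:26456538-26456597, minus strand: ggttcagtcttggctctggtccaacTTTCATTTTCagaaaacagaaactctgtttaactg
Gbp3, chr3:142559974-142560039, plus strand: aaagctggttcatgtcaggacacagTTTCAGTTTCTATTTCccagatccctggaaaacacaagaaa
H2-T23, chr17:36032791-36032850, minus strand: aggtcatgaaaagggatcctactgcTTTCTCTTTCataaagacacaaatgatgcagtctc
In Isg15 the 3 matches overlap as an unbroken run whose first base lies 78 bases before the start. Ifit1 holds 2 separate matches, beginning 104 and 85 bases before the start, and Ddx60 holds 2 of identical letters. Oas1g and Gbp3 hold 2 overlapping matches each, and Stat2, Rsad2 and H2-T23 hold 1 each.

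The interferon ligands were dim. Of 13 interferon genes measured limma called 0, and 2 had an unadjusted p under 0.05, with a median difference of 0.04, and the highest value of any of them on a KO or HET chow array was 4.82. Ifnb1, the gene of interferon beta, read 1.18, 1.40 and 1.13 in KO livers, against 1.19, 1.01 and 1.19 in HET livers. These values overlap and lie under the array medians, so a change of Ifnb1 was not detectable on these arrays.

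Sensors of RNA and DNA rose in part, with 7 of 19 measured members higher in KO livers, 0 lower and a median difference of 0.67. Dhx58, which encodes LGP2, a helicase of the RIG-I family, read 7.72, 7.77 and 7.71 in KO livers, against 5.64, 5.14 and 5.39 in HET livers. It rose by 2.34 ± 0.17 (adjusted p = 9.71e-06), and the KO arrays were nearly equal. Ddx60, a helicase reported to assist RIG-I, read 7.22, 7.31 and 7.07 in KO livers, against 4.0, 4.41 and 4.93 in HET livers (2.76 ± 0.24, adjusted p = 7.08e-05). Ddx58, which encodes RIG-I, read 8.91, 9.11 and 9.03 in KO livers, against 7.70, 7.54 and 7.65 in HET livers (1.38 ± 0.14, adjusted p = 1.49e-04). Its relative Ifih1, the gene of MDA5, rose by nearly the same amount, with 10.12, 10.25 and 10.03 in KO livers against 8.87, 8.71 and 8.81 in HET livers (1.33 ± 0.14, adjusted p = 2.52e-04). Zbp1, a sensor of Z-form nucleic acid, rose by 2.42 ± 0.28 (adjusted p = 4.74e-04) and Trim21, a receptor for antibody inside cells, by 0.95 ± 0.13 (adjusted p = 0.002). Ifi205, a DNA-binding protein of the p200 family, read 6.10, 6.33 and 6.08 in KO livers, against 5.32, 4.68 and 5.0 in HET livers (1.17 ± 0.24), and this call was lost without H2, I1 or F2 (adjusted p up to 0.111). The DNA sensor Cgas (0.18 ± 0.16) and its partner Sting1 (0.37 ± 0.20) were not called, and Cgas was dim, at 1.57 to 1.93 in KO and 1.53 to 1.68 in HET livers. Mavs, the adaptor of RIG-I and MDA5, was not called either (-0.21 ± 0.11, adjusted p = 0.447).

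Among receptors and signal carriers, 4 of 15 rose and 0 fell, with a median difference of 0.26. The receptor subunits Ifnar1 (8.78, 8.80 and 8.79 in KO livers, 8.66, 8.67 and 8.75 in HET livers) and Ifnar2 (9.66, 9.75 and 9.74 in KO livers, 9.52, 9.59 and 9.57 in HET livers) were well expressed and not called. Their differences were 0.10 ± 0.09 and 0.16 ± 0.11. The transcription factor Irf7, which amplifies the interferon response, read 9.96, 10.21 and 10.17 in KO livers, against 6.83, 6.91 and 7.37 in HET livers. This rise of 3.08 ± 0.18 (adjusted p = 2.50e-06) was 8.43-fold, with no overlap between the groups. Usp18, the protease that removes ISG15 and also dampens the receptor, read 9.48, 9.44 and 9.67 in KO livers, against 5.45, 6.19 and 5.96 in HET livers. It rose 12.7-fold (3.66 ± 0.19, adjusted p = 2.18e-06). Irf9, a transcription factor of the IRF family, read 8.61, 8.06 and 8.55 in KO livers, against 7.31, 7.26 and 7.41 in HET livers (1.08 ± 0.13, adjusted p = 9.08e-04). Stat2 read 8.44, 8.33 and 8.46 in KO livers, against 7.63, 7.85 and 7.87 in HET livers (0.63 ± 0.12), and its call was lost without I1 or F1 (adjusted p up to 0.0719).

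The ISG15 system, which attaches the ubiquitin-like protein ISG15 to other proteins, rose as a whole list. All 6 of 6 measured genes rose, with a median difference of 1.89. Isg15 read 8.24, 8.38 and 8.22 in KO livers, against 5.49, 5.91 and 5.36 in HET livers, a 6.47-fold rise (2.69 ± 0.17, adjusted p = 2.95e-06). The activating enzyme Uba7 (1.57 ± 0.25), the conjugating enzyme Ube2l6 (1.05 ± 0.17) and the ligase Herc6 (2.22 ± 0.21) rose with it. Trim25, a ligase that also modifies RIG-I, rose least (0.64 ± 0.13, adjusted p = 0.0266), and that call was lost without H1, I1, F1, F2 or P1 (adjusted p up to 0.123). The protease Usp18 completes the list.

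Oligoadenylate synthetases, which make the messenger that activates RNase L on double-stranded RNA, rose in 7 of 11 measured genes, with 0 lower and a median difference of 1.56. Oasl2 read 8.77, 9.17 and 9.20 in KO livers, against 5.47, 4.66 and 4.86 in HET livers, a 16.6-fold rise (4.05 ± 0.27, adjusted p = 5.49e-06). Oasl1, an inhibitor of Irf7 translation in mice, read 7.42, 7.49 and 7.30 in KO livers, against 4.80, 5.37 and 5.21 in HET livers (2.28 ± 0.19). Oas1g read 6.16, 6.95 and 6.71 in KO livers, against 2.94, 4.22 and 2.67 in HET livers (3.33 ± 0.47), with HET array F2 well above F1 and P1. Oas2 (2.09 ± 0.33) and Oas1b (1.56 ± 0.23) also rose.

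IFIT proteins bind foreign RNA ends, IFITM proteins block viral entry, and IFI27 proteins are small membrane proteins. In this list 6 of 13 measured genes rose and 0 fell, with a median difference of 1.09. Ifi27l2b showed the largest rise of any interferon-list gene, with 7.11, 7.87 and 7.79 in KO livers, against 3.67, 2.93 and 3.66 in HET livers. This is 18.0-fold (4.17 ± 0.25, adjusted p = 2.50e-06). Ifit1 read 8.95, 8.90 and 8.88 in KO livers, against 5.28, 5.93 and 4.92 in HET livers (3.54 ± 0.26, adjusted p = 1.24e-05), so the KO arrays were nearly equal while the HET arrays were spread more widely. Ifi27 rose by 2.45 ± 0.23 and the abundant Ifitm3 by 1.0 ± 0.11, with 11.27, 11.34 and 11.35 in KO livers against 10.57, 10.24 and 10.17 in HET livers. Ifit3 read 5.78, 5.52 and 4.39 in KO livers, against 4.22, 4.22 and 3.07 in HET livers, with 1 low array in each group. It was not called (1.39 ± 0.39, adjusted p = 0.108), and it was called without I1 (adjusted p = 0.0457).

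Among 22 further antiviral effectors 19 rose and 0 fell, with a median difference of 1.33. Xaf1, a partner of apoptosis inhibitors, read 6.97, 6.92 and 7.15 in KO livers, against 4.24, 4.46 and 4.71 in HET livers (2.54 ± 0.16, adjusted p = 3.25e-06). Rtp4, a membrane protein that restrains several viruses, varied little within either group, with 9.81, 9.69 and 9.68 in KO livers against 7.50, 7.45 and 7.41 in HET livers (2.27 ± 0.16). Bst2, which tethers budding virus to the cell, gave separate values in the 3 genotypes, of which only KO against HET was tested. It read 11.20, 11.27 and 11.28 in KO livers and 10.09, 10.06 and 10.09 in HET livers, and 9.39 and 9.40 in WT livers (KO minus HET 1.17 ± 0.12, adjusted p = 1.52e-04). The RNA editing enzyme Adar rose by 0.79 ± 0.11, the lectin-binding glycoprotein Lgals3bp by 1.56 ± 0.14 and the radical enzyme Rsad2, known as viperin, by 1.70 ± 0.29. Rsad2 read 7.19, 7.68 and 7.49 in KO livers, against 5.85, 6.30 and 5.12 in HET livers, and its genomic neighbour Cmpk2 rose by 1.87 ± 0.30. Mx1 read 3.06, 3.07 and 3.52 in KO livers, against 1.48, 1.95 and 1.81 in HET livers, which are under the array medians, so the size of its rise (1.47 ± 0.17) is uncertain. A second probe set of Lgals3bp showed a difference of 1.81.

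**Figure D1:**
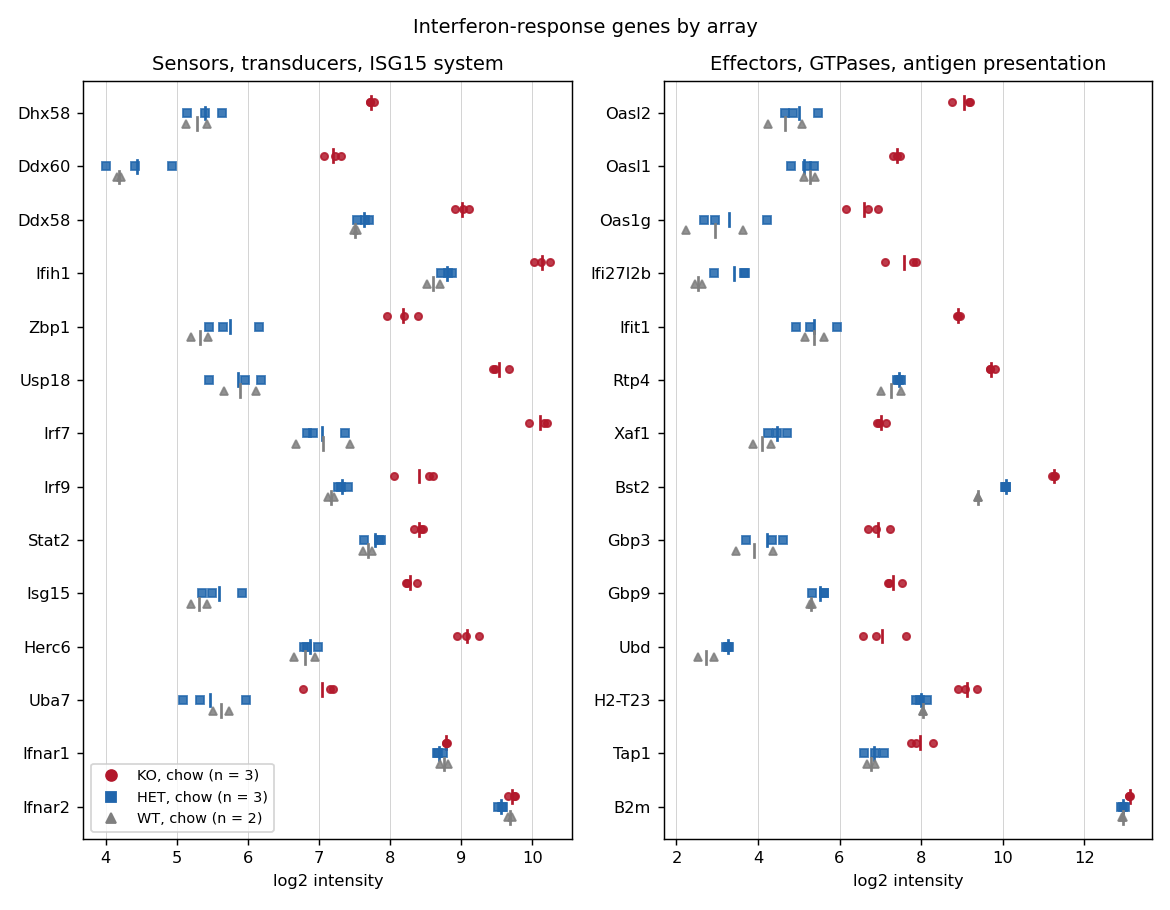
Log2 intensity (horizontal axis) of 28 interferon-response genes in 3 KO, 3 HET and 2 WT livers on chow, with a symbol per array and a vertical bar at the group mean. The KO arrays lie apart from the HET arrays for Usp18 (3.66 ± 0.19) and Isg15 (2.69 ± 0.17), the receptor genes Ifnar1 and Ifnar2 and the abundant B2m were not called, and the Bst2 values of the 3 genotypes do not overlap.

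Guanylate-binding proteins and immunity-related GTPases attack the membranes around intracellular pathogens and respond to interferon gamma as well as to type I interferon. In this list 8 of 13 rose and 0 fell, with a median difference of 0.92. Gbp3 read 6.70, 7.24 and 6.89 in KO livers, against 4.62, 4.35 and 3.71 in HET livers (2.72 ± 0.25, adjusted p = 8.81e-05). Gbp9 (1.80 ± 0.16) and Gbp7 (1.73 ± 0.18) rose less, and the abundant Gbp10 read 10.55, 11.04 and 10.69 in KO livers, against 8.20, 7.25 and 8.09 in HET livers (2.91 ± 0.38). The GTPases Igtp (1.75 ± 0.27) and Irgm1 (1.16 ± 0.17) rose too. In the immunoproteasome and MHC class I list, whose products cut and display peptides to T cells, 9 of 16 rose and 0 fell, with a median difference of 0.69. Ubd, a ubiquitin-like protein also called FAT10, read 6.58, 6.89 and 7.62 in KO livers, against 3.28, 3.27 and 3.22 in HET livers (3.78 ± 0.35, adjusted p = 1.01e-04). The proteasome subunit Psmb9 (1.26 ± 0.20), the peptide transporter Tap1 (1.13 ± 0.16), the class Ib molecule H2-T23 (1.12 ± 0.13) and the class I molecule H2-K1 (0.70 ± 0.12) rose by smaller steps. B2m, the shared light chain, was already near the top of the scale and was not called, with 13.11, 13.10 and 13.13 in KO livers against 13.00, 12.96 and 12.90 in HET livers (0.16 ± 0.08).

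Of 7 MHC class II genes, 25 chemokines and 22 cytokines and NF-kB targets limma called 0, with medians of 0.26, 0.27 and 0.21. An unadjusted p under 0.05 was found for 1, 9 and 5 of them. Cxcl10, a chemokine that interferon induces in many cells, read 5.02, 5.59 and 5.58 in KO livers, against 5.62, 5.08 and 4.04 in HET livers. Cxcl9 read 8.93, 9.12 and 9.21 in KO livers, against 9.63, 9.10 and 7.96 in HET livers. Both overlapped, with HET array F1 the highest and P1 the lowest of the 6, and neither was called (0.48 ± 0.38 and 0.19 ± 0.43).

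**Figure D2:**
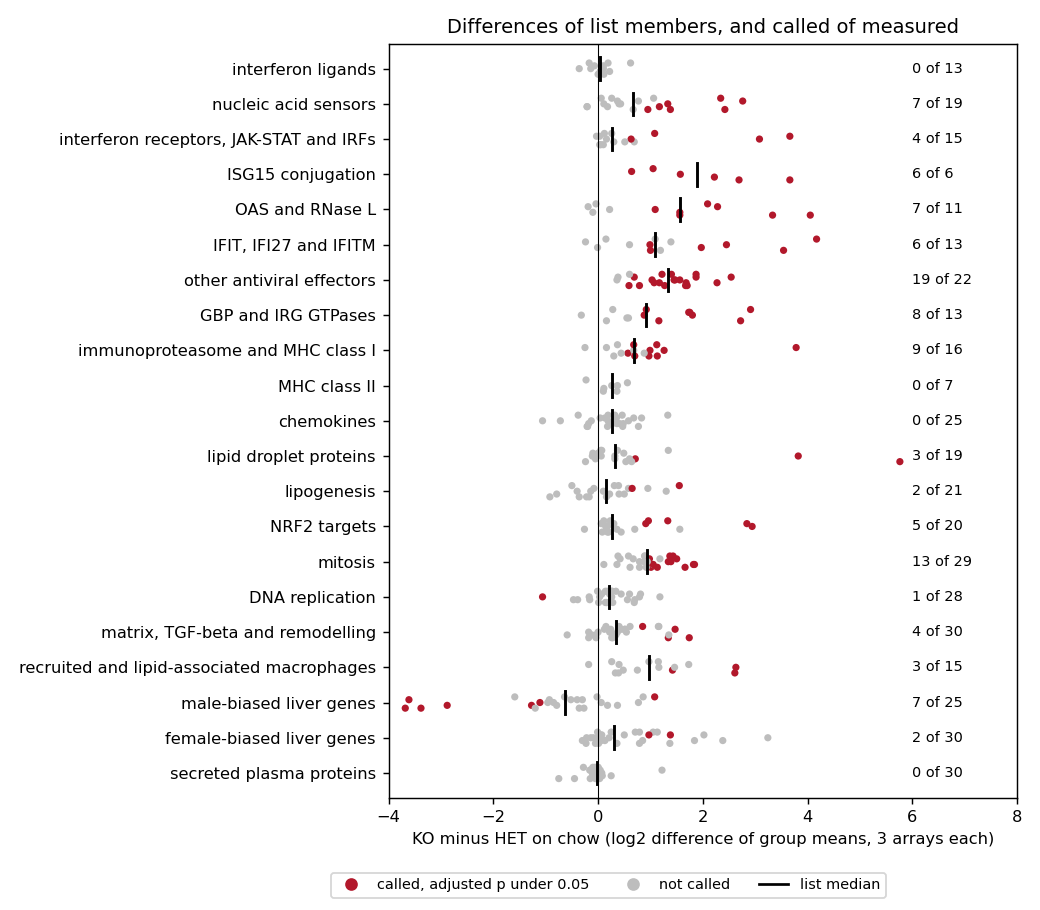
KO minus HET differences on chow (horizontal axis, log2) of the measured members of 21 lists, red where called, with the list median as a black bar and called of measured at the right. The ISG15 list has 6 of 6 called and the other antiviral effectors 19 of 22. Of 13 interferon ligands and 25 chemokines 0 were called, and the share called over all genes was 1.92%.

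Genes of lipid droplets showed the single largest rise of the comparison. In their list 15.8% of the genes rose, and in the list of fatty acid uptake and esterification 8.0%, against 1.44% of all genes. Of 19 lipid droplet genes 3 rose and 0 fell (median 0.32), and 5 rose without P1. In addition 2 of 25 genes of fatty acid uptake and esterification rose (median 0.17). Cidea, which fuses and enlarges droplets and is normally found in brown fat, read 7.79, 7.03 and 8.93 in KO livers, against 1.72, 2.03 and 2.71 in HET livers. The HET values straddle the array medians, so the 54.2-fold rise (5.76 ± 0.40, adjusted p = 6.53e-06) has no firm size. Its relative Cidec read 7.48, 6.70 and 8.99 in KO livers, against 3.98, 2.85 and 4.87 in HET livers (3.82 ± 0.57). For both genes the order within KO livers was I1, H1 and H2 from high to low, and P1 was the highest HET array. The droplet coat protein Plin2 was far steadier, with 10.19, 10.34 and 10.32 in KO livers against 9.57, 9.65 and 9.52 in HET livers (0.71 ± 0.13), and its call was lost without H2, I1, F1 or F2 (adjusted p up to 0.0751). Cd36, a fatty acid translocase, read 10.25, 10.41 and 10.83 in KO livers, against 9.28, 9.03 and 9.05 in HET livers (1.38 ± 0.15, adjusted p = 2.67e-04). Mogat1, which makes diacylglycerol, rose by 2.13 ± 0.33, with 3.82, 3.74 and 5.14 in KO livers and HET values near the array medians, of which F1 was the lowest at 1.95.

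In the lipogenesis list 2 of 21 rose and 0 fell (median 0.16), with an unadjusted p under 0.05 for 11, and both of the called genes were outside the core pathway. They were Khk, the fructose kinase (0.65 ± 0.14, call lost without H1, H2, I1, F1 or F2, adjusted p up to 0.115), and Fads3, a desaturase (1.55 ± 0.33, call lost without H2, I1, F1, F2 or P1, adjusted p up to 0.133). Fasn, the fatty acid synthase, read 10.58, 9.88 and 10.44 in KO livers, against 10.18, 10.11 and 10.13 in HET livers, and the groups overlapped (0.16 ± 0.25). Srebf1, its main activator, read 8.54, 7.71 and 7.44 in KO livers, against 8.69, 8.81 and 8.96 in HET livers (-0.92 ± 0.26, adjusted p = 0.115), and was called without H1 (adjusted p = 0.0144). Of 19 sterol synthesis genes and 21 genes of glucose and insulin limma called 0, and 2 and 3 of them had an unadjusted p under 0.05. In the fatty acid oxidation list 1 of 21 rose (median 0.16, unadjusted p under 0.05 for 11), the peroxisomal enzyme Ehhadh, with 10.96, 10.87 and 11.23 in KO livers against 10.22, 10.17 and 10.32 in HET livers (0.78 ± 0.12). The hormone Fgf21 read 4.11, 4.25 and 5.87 in KO livers, against 2.65, 3.02 and 2.64 in HET livers (1.98 ± 0.45), and its call was lost without H2, I1, F1, F2 or P1 (adjusted p up to 0.133).

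Of 20 targets of NRF2, 5 rose and 0 fell, with a median difference of 0.26. The count was 2 without H2, I1 or F2. Slc7a11, the cystine transporter that feeds glutathione synthesis, read 4.22, 5.13 and 5.94 in KO livers, against 1.84, 2.55 and 2.07 in HET livers (2.94 ± 0.36, adjusted p = 9.04e-04). A second, dimmer probe set of Slc7a11 read 1.27 in KO and 1.15 in HET livers on average and showed almost no difference (0.13). Cbr3, a carbonyl reductase, read 3.95, 5.93 and 6.73 in KO livers, against 2.53, 2.47 and 3.08 in HET livers (2.84 ± 0.53), and its call was lost without H2, I1, F1 or F2 (adjusted p up to 0.0716). Nqo1, the quinone reductase, read 7.47, 7.86 and 8.26 in KO livers, against 6.72, 6.59 and 6.31 in HET livers (1.33 ± 0.22). For all 3 genes H1 was the lowest and I1 the highest KO array. Pgd of the pentose phosphate pathway (0.91 ± 0.18) and the glutathione transferase Gstm3 (0.96 ± 0.19) rose less, and their calls were lost without H2, I1 or F2, that of Pgd also without P1 (adjusted p up to 0.101 for Pgd and 0.104 for Gstm3). Outside that list, Mgst2, a microsomal glutathione transferase, read 5.83, 6.30 and 6.01 in KO livers, against 3.50, 3.66 and 3.39 in HET livers (2.53 ± 0.29, adjusted p = 4.48e-04). The exporter Abcc4 read 7.13, 7.67 and 7.85 in KO livers, against 5.96, 6.08 and 5.76 in HET livers (1.61 ± 0.21). Abcc4 was the 1 gene called among 23 bile and organic ion transporters, and Cyp2d12 (3.67 ± 0.46, with HET values under the array medians) the 1 called among 43 cytochromes of families CYP1 and CYP2. Of 19 genes of bile acid synthesis and nuclear receptors limma called 0, and 3 had an unadjusted p under 0.05.

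Genes of mitosis were higher in KO livers, at low levels. Of 29 measured 13 rose and 0 fell, and the KO mean was above the HET mean in 29 of 29, with a median difference of 0.94. The count was 21 without KO array H1 and 5 to 9 without any other single array (6 without H2, 5 without I1, 8 without F1, 5 without F2 and 9 without P1). Prc1, which bundles spindle microtubules, read 4.29, 4.97 and 5.24 in KO livers, against 3.36, 2.81 and 2.86 in HET livers (1.82 ± 0.22, adjusted p = 6.89e-04). Cdc20, an activator of the anaphase complex, read 4.55, 5.25 and 4.60 in KO livers, against 3.22, 2.68 and 2.98 in HET livers (1.84 ± 0.25). Nusap1, another spindle protein, read 3.13, 3.85 and 3.68 in KO livers, against 2.00, 2.10 and 2.27 in HET livers, which lie near or under the array medians (1.43 ± 0.16). Mki67, the proliferation marker Ki-67, read 4.93, 5.58 and 6.10 in KO livers, against 4.65, 4.49 and 4.31 in HET livers (1.05 ± 0.23), and its call was lost without H2, I1, F1, F2 or P1 (adjusted p up to 0.116). H1 was the lowest KO array for Prc1, Cdc20, Nusap1 and Mki67. Of 28 DNA replication genes 0 rose and 1 fell, although the KO mean was the higher in 22 of 28 (median 0.20) and 10 had an unadjusted p under 0.05. The gene that fell was Mcm10, a replication initiation factor, with 5.72, 5.46 and 5.41 in KO livers against 6.41, 6.96 and 6.41 in HET livers (-1.06 ± 0.21, call lost without H2, I1 or F2, adjusted p up to 0.103).

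Of 25 p53 targets and DNA damage genes 2 rose and 0 fell (median 0.22). Both encode receptors of the TNF receptor family. Eda2r read 3.52, 4.44 and 4.58 in KO livers, against 2.48, 2.10 and 2.21 in HET livers (1.92 ± 0.28, adjusted p = 0.00268). Tnfrsf10b read 3.67, 3.72 and 5.16 in KO livers, against 3.01, 2.44 and 2.16 in HET livers (1.65 ± 0.33), and its call was lost without F2 or P1 (adjusted p up to 0.0896). Cdkn1a, the cell cycle inhibitor p21, read 7.28, 7.28 and 9.44 in KO livers, against 7.07, 7.06 and 4.54 in HET livers, and 5.02 and 4.66 in WT livers. It was not called (1.78 ± 0.64, adjusted p = 0.226). HET arrays F1 and F2 read near KO arrays H1 and H2, P1 read near the WT arrays, and I1 was the highest of all.

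Some markers of other liver cells were called, and the share called over all genes tested was 1.92%. In whole liver, fewer cells of a type and less RNA per cell cannot be told apart. Of 15 markers of recruited and lipid-associated macrophages 3 rose and 0 fell (median 0.97), and 5 rose without H1. Cx3cr1, the fractalkine receptor of monocytes and macrophages, read 5.43, 5.43 and 5.20 in KO livers, against 2.86, 2.52 and 2.87 in HET livers (2.61 ± 0.17, adjusted p = 3.25e-06). Ly6c2, an antigen of inflammatory monocytes, read 4.24, 4.88 and 5.25 in KO livers, against 2.14, 2.26 and 2.09 in HET livers, which lie near or under the array medians. Trem2, a lipid receptor of macrophages, read 4.55, 5.18 and 5.08 in KO livers, against 3.74, 3.50 and 3.32 in HET livers (1.42 ± 0.23). The summed intensity of all 15 markers was 1097 to 1604 in KO livers and 835 to 1367 in HET livers, which overlapped. The sum follows the brightest markers. The mean log2 level of the 15 relative to all 14 arrays did not overlap, at 0.07, 0.67 and 0.73 in KO livers and -0.11, -0.63 and -0.90 in HET livers, and 14 of 15 had a higher KO mean. Of 10 markers of resident Kupffer cells 0 rose and 1 fell, Timd4, a receptor for dead cells, with 5.02, 5.40 and 4.28 in KO livers against 6.65, 6.25 and 6.34 in HET livers (-1.52 ± 0.22, adjusted p = 0.00281). Cd163, the haemoglobin scavenger receptor, read 5.22, 5.35 and 4.81 in KO livers, against 6.70, 6.62 and 7.18 in HET livers, and was not called although the groups did not overlap (-1.71 ± 0.45, adjusted p = 0.0827). The summed Kupffer cell markers overlapped, at 1873 to 2511 in KO and 2085 to 2932 in HET livers. Of 16 T, NK and B cell markers, 11 neutrophil markers, 14 endothelial, 10 cholangiocyte, 6 adipocyte and 5 pancreas markers limma called 0. An unadjusted p under 0.05 was found for 0, 1, 2, 3, 0 and 1 of them. Of 14 stellate cell markers 0 rose and 1 fell, the retinoid esterifying enzyme Lrat (-1.22 ± 0.23), whose call was lost without I1, F1 or F2 (adjusted p up to 0.0657). The part of these cells in the interferon result was not tested. The 16 lymphocyte markers summed to 280 to 341 in KO and 176 to 401 in HET livers, and the 11 neutrophil markers to 44.8 to 50.6 in KO and 43.9 to 57.3 in HET livers. The 10 cholangiocyte markers did not overlap, at 566 to 637 in KO and 422 to 525 in HET livers. The 9 dendritic cell markers summed to 2503 to 2713 in KO and 1257 to 1289 in HET livers, but most of this sum is Bst2, itself an interferon-list gene and the 1 member called. Without Bst2 the other 8 overlapped, at 154 to 224 in KO and 175 to 202 in HET livers.

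Some matrix genes rose, 13.3% of the matrix and remodelling list and 9.52% of the collagens, against 1.44% of all genes. In the list of matrix and remodelling genes 4 of 30 rose and 0 fell (median 0.34), the count being 2 without H2, I1 or F2, and of 21 collagens 2 rose and 0 fell (median 0.20). Lum, the proteoglycan lumican, read 6.60, 6.76 and 6.73 in KO livers, against 5.67, 4.94 and 5.46 in HET livers (1.34 ± 0.19, adjusted p = 0.002). Timp2, an inhibitor of matrix proteases, read 6.99, 7.35 and 7.37 in KO livers, against 6.47, 6.18 and 6.52 in HET livers (0.85 ± 0.14). Mmp2, a gelatinase, rose by 1.47 ± 0.30 and Smoc2, a matricellular protein, by 1.74 ± 0.36. The collagen chain Col6a3 rose by 1.04 ± 0.21. These last 3 calls were lost without H2, I1 or F2, and that of Mmp2 also without P1 (adjusted p up to 0.107 for Mmp2, 0.114 for Smoc2 and 0.0948 for Col6a3). HET array F1 was the highest HET array for Lum, Mmp2, Smoc2 and Col6a3.

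The lists of hepatocyte markers and secreted plasma proteins had small median differences. With 1.92% of all genes called, a lack of calls in lists of their size is near the share over all genes. Of 9 hepatocyte markers and 30 secreted plasma proteins limma called 0, with medians of -0.01 and -0.03, and 1 and 5 of them had an unadjusted p under 0.05. Alb, the gene of albumin, read 13.45, 13.45 and 13.47 in KO livers, against 13.45, 13.38 and 13.47 in HET livers, and Hnf4a, a master regulator of hepatocytes, read 10.92, 10.99 and 11.08 in KO livers, against 10.92, 10.89 and 10.94 in HET livers. Of 24 hepatocyte transcription factors 0 rose and 2 fell (median 0.01). Onecut1, the transcription factor HNF6, read 6.22, 6.04 and 5.87 in KO livers, against 9.10, 9.41 and 7.98 in HET livers, and 9.42 and 9.69 in WT livers. It fell by 2.78 on the log2 scale (SE 0.40, adjusted p = 0.0027), with P1 the lowest control array. In the growth hormone axis 0 of 15 rose and 3 fell, Onecut1 among them. Igf1, the hormone's main effector, read 9.73, 9.54 and 9.42 in KO livers, against 10.17, 10.24 and 10.03 in HET livers (-0.58 ± 0.12), and Igfals, which carries IGF-1 in blood, read 7.18, 6.96 and 6.84 in KO livers, against 7.54, 7.84 and 8.01 in HET livers (-0.80 ± 0.17). Both of these calls were lost without H2, I1 or F2, that of Igf1 also without F1 and that of Igfals also without P1 (adjusted p up to 0.142 for Igf1 and 0.121 for Igfals).

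Genes with higher expression in male mouse liver fell in part. Of 25 measured 6 fell and 1 rose, with a median difference of -0.64, and of 30 female-biased genes 2 rose and 0 fell, with a median of 0.30. The male-biased gene that rose was the cytochrome Cyp4a12a (1.08), and the KO mean was the higher for 6 of the 25. Without single arrays 2 to 5 of the male-biased genes fell (2 without I1, 3 without F1, 3 without F2), and 3 rose without P1. Of the female-biased genes 5 rose without P1, 4 without H1 and 1 without I1, F1 or F2. Hsd3b5, a male-specific steroid dehydrogenase, read 2.47, 4.03 and 2.35 in KO livers, against 6.20, 5.44 and 8.25 in HET livers, and 8.39 and 9.21 in WT livers. It fell by 3.68 on the log2 scale (SE 0.69, adjusted p = 0.0162), and the call was lost without H1 or I1 (adjusted p up to 0.0798). Its relative Hsd3b3, not a member of the male-biased list, read 7.44, 7.52 and 7.09 in KO livers, against 8.62, 8.68 and 8.91 in HET livers (-1.39 ± 0.18, adjusted p = 0.00134). C4a, which encodes the sex-limited protein Slp in mice, read 4.31, 3.54 and 3.15 in KO livers, against 6.20, 6.78 and 6.66 in HET livers (-2.88 ± 0.32, adjusted p = 3.79e-04). Its near-identical relative C4b, complement C4 itself, rose, with 10.87, 10.88 and 11.07 in KO livers against 10.36, 10.14 and 10.47 in HET livers (0.61 ± 0.11, call lost without I1 or F2, adjusted p up to 0.0689). The transcribed pseudogene Serpina4-ps1 read 6.82, 6.68 and 6.45 in KO livers, against 9.58, 10.60 and 9.92 in HET livers (-3.38 ± 0.49, adjusted p = 0.0027). Adh6-ps1 read 4.25, 4.23 and 3.19 in KO livers, against 8.10, 8.21 and 6.20 in HET livers (-3.61 ± 0.73), and its call was lost without H2, I1, F1 or F2 (adjusted p up to 0.112).

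For the female-biased cytochromes Cyp2b9 and Cyp2b13 the 3 HET arrays were not alike. Cyp2b9 read 8.99, 8.74 and 8.35 in KO livers, against 3.43, 4.42 and 8.51 in HET livers, and 1.34 and 3.32 in WT livers. Cyp2b13 read 6.70, 6.58 and 5.99 in KO livers, against 1.90, 2.66 and 7.57 in HET livers, and 2.11 and 2.13 in WT livers. HET array P1 thus read like the KO arrays while the other 4 control arrays were low. Neither gene was called (adjusted p = 0.253 and 0.336). Without P1 both were called (4.77 and 4.15, adjusted p = 0.0341 and 2.12e-04), and with P1 as the lone HET array the differences were 0.18 for Cyp2b9 and -1.14 for Cyp2b13.

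**Figure D3:**
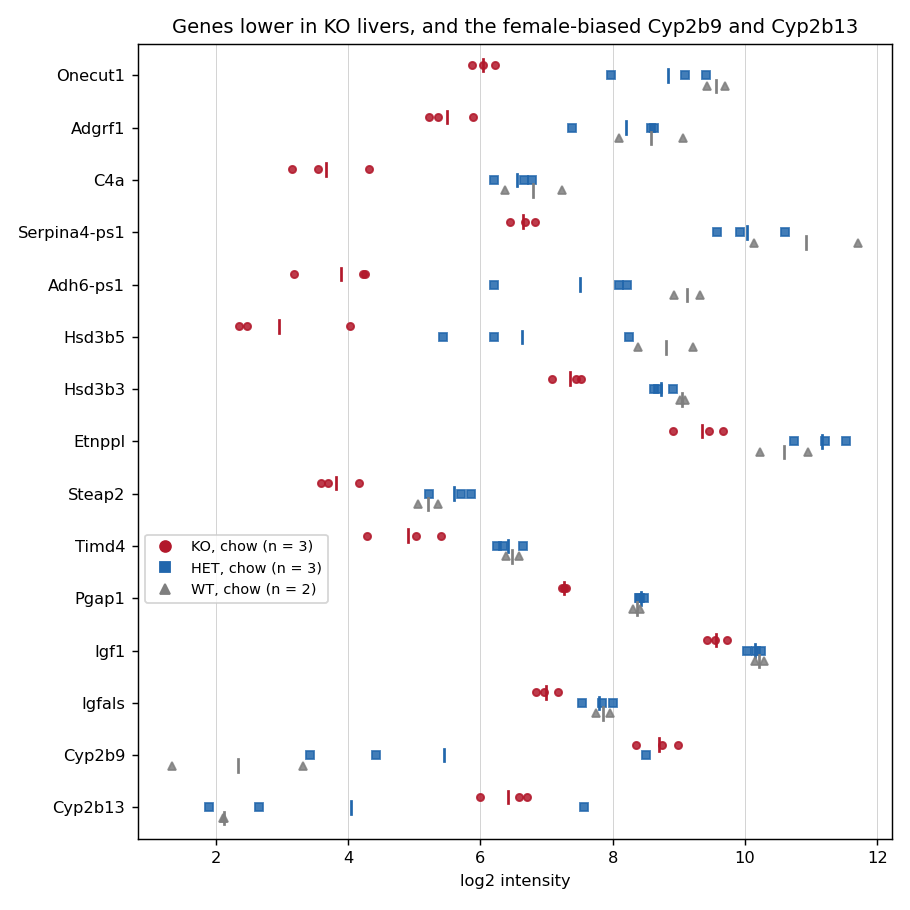
Log2 intensity (horizontal axis) of 13 genes lower in KO livers and of Cyp2b9 and Cyp2b13 in 3 KO, 3 HET and 2 WT livers on chow, with a symbol per array and a vertical bar at the group mean. Onecut1 and C4a lie apart from both control groups, while 1 HET array of Cyp2b9 (8.51) and of Cyp2b13 (7.57) lies among the KO arrays.

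Metabolic and other genes also fell. Of 26 genes of the urea cycle and amino acid catabolism 0 rose and 2 fell (median -0.26). Etnppl, which breaks down phosphoethanolamine, read 9.46, 9.67 and 8.91 in KO livers, against 11.21, 11.53 and 10.74 in HET livers (-1.81 ± 0.27, adjusted p = 0.00314). Asl, the argininosuccinate lyase of the urea cycle, changed less (-0.46 ± 0.10), and its call was lost without H2, I1, F1 or F2 (adjusted p up to 0.147). Adgrf1, an adhesion receptor coupled to G proteins, read 5.36, 5.89 and 5.22 in KO livers, against 8.58, 8.63 and 7.39 in HET livers (-2.71 ± 0.46, call lost without F2, adjusted p = 0.0527). Steap2, a metal reductase, read 3.59, 4.17 and 3.69 in KO livers, against 5.86, 5.70 and 5.23 in HET livers (-1.78 ± 0.23). Pgap1, which remodels lipid anchors of surface proteins, was very even, with 7.29, 7.24 and 7.26 in KO livers against 8.48, 8.40 and 8.42 in HET livers (-1.17 ± 0.13, adjusted p = 3.79e-04). The kinase Sik1 read 6.46, 6.54 and 6.87 in KO livers, against 8.30, 7.64 and 7.44 in HET livers, and 6.62 and 6.71 in WT livers. The clock repressor Cry1 read 5.31, 4.97 and 4.42 in KO livers, against 6.14, 6.71 and 5.92 in HET livers, and 5.21 and 5.69 in WT livers. For Sik1 both WT arrays, and for Cry1 1 of them, lay within the KO range, and both calls were lost without H2, I1, F1 or F2, that of Sik1 also without H1 (adjusted p up to 0.145 for Sik1 and 0.147 for Cry1).

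Further large rises are given next. In the oncofetal list, genes of fetal liver or liver tumours, 6 of 21 rose and 0 fell (median 0.57), 3 of them without H2, I1 or F2. Like the other lists, it was chosen with earlier results of these data known, so its count is a description and no test. Ly6d, a surface protein of epithelia and B cell precursors, read 7.20, 7.80 and 8.73 in KO livers, against 3.32, 3.18 and 2.90 in HET livers (4.77 ± 0.28, adjusted p = 2.50e-06). Anxa13, a membrane-binding annexin of gut epithelium, read 7.05, 6.62 and 7.51 in KO livers, against 3.20, 2.95 and 3.32 in HET livers (3.90 ± 0.30). Apela, a peptide that activates the apelin receptor, read 4.39, 5.43 and 6.05 in KO livers, against 1.89, 2.16 and 1.29 in HET livers, which are under the array medians (3.51 ± 0.35). Rhbg, an ammonium transporter of pericentral hepatocytes, read 8.53, 9.01 and 8.45 in KO livers, against 5.87, 5.27 and 7.04 in HET livers (2.61 ± 0.33), and it was the 1 gene called among 19 pericentral genes. In the acute phase and iron list 2 of 22 rose and 0 fell (median 0.03). Orm2, an acute phase lipocalin, read 8.85, 9.15 and 9.32 in KO livers, against 7.69, 7.57 and 7.09 in HET livers (1.66 ± 0.23). The related Orm3 read 7.32, 8.01 and 7.73 in KO livers, against 2.11, 2.45 and 4.67 in HET livers and 1.63 and 5.42 in WT livers (4.61 ± 0.95), with 1 high array in each control group, and its call was lost without H2, I1, F1 or F2 (adjusted p up to 0.112). Slc39a5, a zinc importer and the 1 gene called among 8 of metallothioneins and zinc transport, rose by 2.70 ± 0.45 and Pls1, an actin bundler, by 3.47 ± 0.62, and the call of Pls1 was lost without I1 or F2 (adjusted p up to 0.0583). Slc1a1, a glutamate transporter, read 3.33, 5.37 and 5.73 in KO livers, against 2.07, 2.30 and 1.92 in HET livers (2.72 ± 0.47, call lost without H2, adjusted p = 0.0513). A4gnt, a glycosyltransferase of gastric mucin, read 3.18, 3.87 and 5.44 in KO livers, against 1.58, 1.39 and 1.63 in HET livers (2.63 ± 0.46), so H1 was the lowest KO array for both.

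The 3 KO livers lay closer together for interferon-list genes than for the rises outside those lists. Over the 65 interferon-list genes that rose, the median range over the 3 KO arrays was 0.31 log2 units, and over the 3 HET arrays 0.44. Over the 255 other genes that rose it was 0.52 in KO and 0.38 in HET livers. The lists do not hold every interferon-induced gene, and the 255 include Ifi213 (2.05) and Ifi209 (1.78), relatives of Ifi205. Among these 255, H1 was the lowest KO array for 165 and I1 the highest for 176. Among the 65 interferon genes H1 was lowest for 31 and I1 highest for 30. For the 106 genes that fell the median range was 0.28 in KO and 0.32 in HET livers, and H1 was the highest KO array for 53 and I1 the lowest for 57. In each of these sets H1 was thus most often the KO array nearest to the HET livers and I1 the farthest, most clearly among the 255 other rises. How often this holds over all genes was not computed. The 2 WT arrays, which took no part in the comparison's means, lay on the HET side of all KO arrays for 404 of the 426 called genes. These were 64 of 65 interferon genes, 245 of 255 other rises and 95 of 106 falls. The genes were chosen by their KO against HET call, and the share over all genes was not computed. WT mice (24.6 and 27 weeks) were, like HET mice, younger than KO mice (38.9 weeks), so age and genotype cannot be told apart here either. Over all genes the 3 KO arrays correlated with each other at 0.992 to 0.994 and with HET arrays at 0.984 to 0.99, and HET array P1 correlated more with WT array N1 (0.994) than with F1 (0.989) or F2 (0.99).

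**Figure D4:**
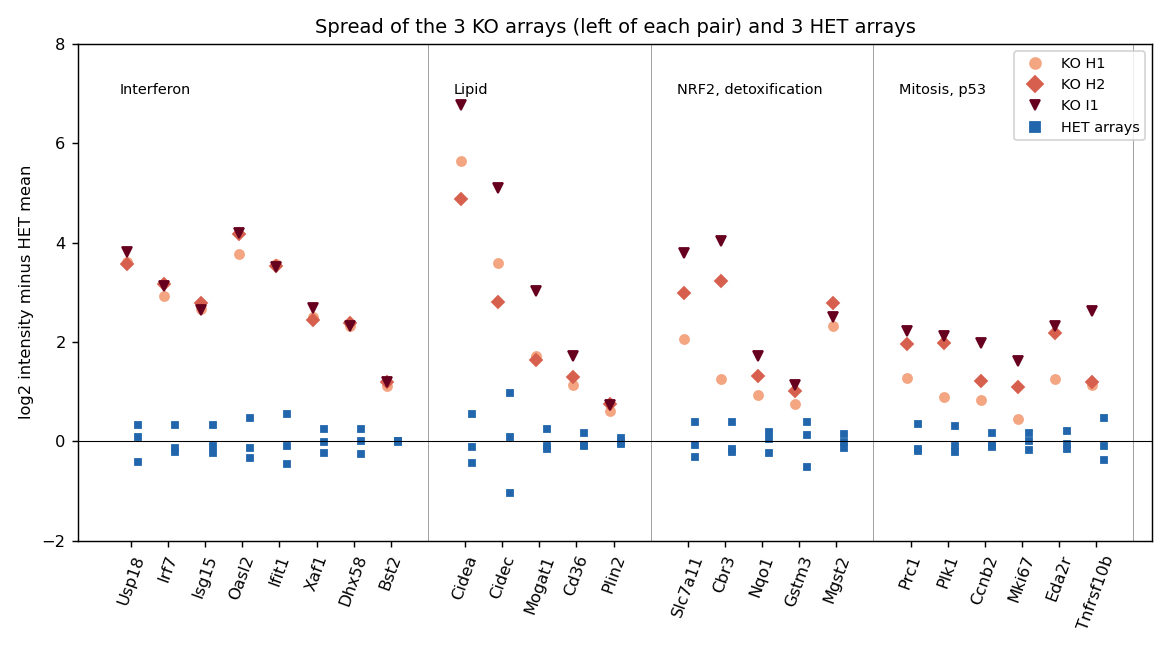
Log2 intensity minus the HET mean (vertical axis) for 24 genes that rose, in 4 groups, with 3 KO arrays at the left and 3 HET arrays at the right of each gene. The KO arrays nearly coincide for Usp18, Isg15 and Ifit1, while H1 is lowest and I1 highest for Slc7a11, Cbr3 and Nqo1.

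Set beside KO against HET livers on HFD, which shares no array with the chow comparison, 395 of the 426 chow calls had the same sign. On HFD 5.5% of all genes were called higher and 2.06% lower in KO livers, which is 1221 of 1677 calls higher. With median centring 915 of 4458 HFD calls were higher. In the same direction on both diets 282 genes were called, which is 66.2% of the chow calls and 16.8% of the HFD calls. Of the 65 interferon genes that rose on chow 65 had a positive difference on HFD and 52 were called there. For 57 of these 65 the chow difference was the larger, with medians of 1.47 on chow and 1.05 on HFD, while it was the larger for 115 of the 255 other rises, with medians of 1.11 on chow and 1.18 on HFD. All these genes were chosen by their chow call, which favours larger chow values. Over all 114 measured interferon-list genes, called or not, the medians were 0.98 on chow and 0.75 on HFD. Irf7 differed by 3.08 on chow and 1.88 on HFD, Usp18 by 3.66 and 2.44, and Isg15 by 2.69 and 1.51. Limma's test of the difference between diets called 0 of the 65, with an unadjusted p under 0.05 for 30 of them and for 2187 of all 22180 genes (adjusted p = 0.157 for Irf7, 0.163 for Usp18 and 0.124 for Isg15).

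That test called 0.0361% of all genes, 1 with a positive and 7 with a negative value of chow minus HFD. Slc16a5, a relative of the monocarboxylate transporters, read 7.58, 7.49 and 7.44 in KO and 6.75, 6.73 and 6.23 in HET livers on chow, but 8.44, 8.73 and 8.95 in KO and 4.89, 5.41 and 5.21 in HET livers on HFD. Chow minus HFD was -2.61 ± 0.28 (adjusted p = 0.00908), and the call was lost without H2 or F2 (adjusted p up to 0.0533). A second probe set of Slc16a5 showed a chow difference of 0.26, against 0.93 for the one used. Nqo1 differed by 1.33 on chow and 3.38 on HFD, and Gstm3 by 0.96 on chow and 2.79 on HFD. On HFD Nqo1 read 8.54, 8.27 and 8.94 in KO livers, against 5.27, 5.20 and 5.15 in HET livers, and the HET values were below those on chow. The call between diets was lost for Nqo1 without H1, H2, F1, F2, C2, C4, A2, B1 or B2 (adjusted p up to 0.152), where C and A or B name KO and HET arrays on HFD. For Gstm3 it was lost when any 1 of these or C3 was left out (adjusted p up to 0.134). The intestinal peptide gene Guca2b, not called on chow (0.76 ± 0.24), differed by 3.21 on HFD. For Tnfaip8l1, a member of the TIPE family, the KO minus HET differences had opposite signs, at 0.57 on chow and -0.84 on HFD. Its KO means were 5.8 on chow and 5.9 on HFD, and its HET means 5.23 and 6.74. For Gstm3 the KO means were 10.95 and 10.96 and the HET means 9.98 and 8.17. For Guca2b, in contrast, the KO means were 2.96 and 5.28 and the HET means 2.2 and 2.07. The call between diets was lost for Guca2b when any 1 of the 9 arrays given for Nqo1 was left out (adjusted p up to 0.122), and for Tnfaip8l1 with any 1 of those except B1 (adjusted p up to 0.0969). The chow call of Slc16a5 was lost without any single one of its 6 arrays (adjusted p up to 0.0943) and that of Tnfaip8l1 without H1, H2, I1, F1 or F2 (adjusted p up to 0.193). Onecut1 fell on chow, but on HFD it read 8.19, 8.36 and 7.43 in KO livers, against 7.65, 7.78 and 6.35 in HET livers (0.73). Its difference between diets was -3.52, which missed the threshold (adjusted p = 0.0544), and it was called without P1 (adjusted p = 0.0112).

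**Figure D5:**
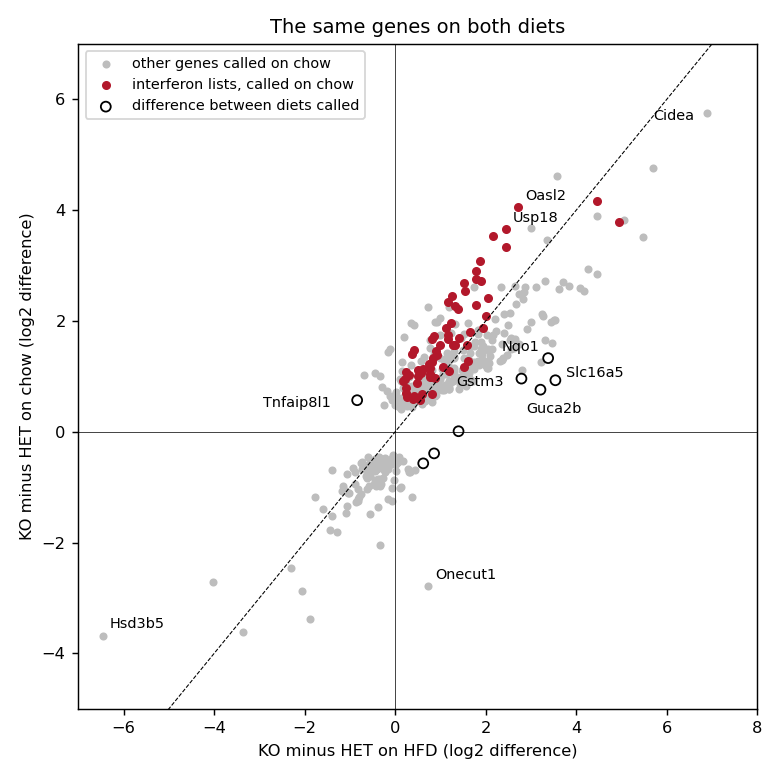
KO minus HET difference on chow (vertical axis, log2) against that on HFD (horizontal axis, log2) for the genes called on chow or in the test between diets, with equal differences on the dashed line. Most interferon genes lie above the line (57 of 65), and Nqo1, Gstm3, Slc16a5 and Guca2b lie far below it.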

How the data were processed

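Total liver RNA of 14 mice was measured on 14 Affymetrix arrays, 1 per mouse. The deposited values are log2 intensities that the authors made with RMA, per the submitters' processing notes, which also name limma; scanner files were not used here. The series value table holds 41345 probe sets, of which 23521 have exactly 1 gene symbol in the platform annotation, 1814 several and 16010 none. For each of 22180 genes the probe set with the highest mean over the 14 arrays was used, so relatives with near-identical sequence and weak signals remain possible sources of error. The number of arrays limits the precision.

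Group means of 5 groups were fitted to all 14 arrays with limma 3.58.1 in R 4.3.3 (lmFit and eBayes, 9 residual and 3.83 prior degrees of freedom), and p-values were adjusted by Benjamini-Hochberg over all genes. The contrasts were KO minus HET on chow, on HFD, and their difference. The procedure was tested on simulated data. Genes were named by rule: Lmna, the 30 largest rises and 30 largest falls among called genes without overlap (from which a selection is given), members of the gene lists, and the 5 largest differences between diets; Onecut1 in the test between diets was added after its values were seen. The members and lists were chosen with earlier results of these data known. Replicate numbers follow accession order and pair no arrays. Alternatives were array weights, a trended and robust prior, a filter on dim genes, the mean of all probe sets, only the arrays compared, median centring, a second quantile normalization, the array-name letter as a random block, a stricter threshold (adjusted p under 0.01), a required fold of at least 1.5, WT and HET pooled, each array left out, F1 and F2 left out together and, chosen after seeing the data, age as a linear term.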

Additional observations from a re-analysis of the deposited data

Results flagged for a closer look

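The KO minus HET difference itself differed between diets for 8 genes, and the 5 with the largest such differences are given here (limma, Benjamini-Hochberg adjusted p over 22180 genes, 3 KO and 3 HET arrays per diet). Chow minus HFD was -2.61 for Slc16a5, where the difference was 0.93 on chow and 3.54 on HFD. It was -2.45 for Guca2b (0.76 on chow and 3.21 on HFD), -2.05 for Nqo1 (1.33 on chow and 3.38 on HFD) and -1.82 for Gstm3 (0.96 on chow and 2.79 on HFD). For Tnfaip8l1 it was 1.41, with 0.57 on chow and -0.84 on HFD. KO and HET mice differed in age by 13.3 weeks on chow and 5.17 weeks on HFD, and the part of age in these values was not tested gene by gene. Groups of 2 or 3 arrays are too small for a search for single outlying arrays.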

How the results depend on the processing

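The main counts were 426 genes on chow, 1677 on HFD and 8 between diets. On chow the count was 216 with only the arrays compared, 157 at an adjusted p under 0.01, 670 with WT and HET pooled, 143 without F1 and F2, 215 without H2, 202 without I1, 258 without F1, and 199 (without F2) to 520 with 1 array left out. Between diets it was 29 with array weights, 24 with the trended and robust prior, 27 with the filter on dim genes, 5 with the letter block, 1 at an adjusted p under 0.01, 15 with WT and HET pooled, 1 without F1 and F2, 35 without I1, 4 without C4 or A2, and 0 (without H2 or F2) to 43 (without P1) with 1 array left out. On HFD it was 4458 after median centring, 705 at an adjusted p under 0.01 1038 without C2, and 971 (without C4) to 1422 with 1 array left out. With age as a linear term, chosen after seeing the data, the counts were 201 on chow, of which 8 were also called without it, 206 between diets and 249 on HFD. The cause of these shifts was not tested beyond the fewer arrays or stricter threshold that some settings use.

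Among the 128 genes examined, signs turned for 25 with the age term and for at most 4 under any other alternative. Median centring gave -0.01 for Ifnb1, -0.02 for Ifnar1, -0.09 for Alb and -0.04 for Hnf4a. Without P1 Cxcl9 was at -0.28, without F2 Alb was at 0.0, and without F1 and F2 Alb was at -0.01 and Cyp2b13 at -1.14. With the age term the difference was -0.29 for Cgas, -1.77 for Sting1, -1.32 for Ube2l6, -0.41 for Trim25, -2.25 for Ifit3, -2.50 for Rsad2, -0.76 for Cmpk2, -0.05 for B2m, -2.58 for Cxcl10 and -3.51 for Cxcl9. It was -0.77 for Plin2, -0.23 for Fads3, 0.79 for Srebf1, -1.09 for Nqo1, -0.46 for Pgd, -1.89 for Gstm3, -0.48 for Plk1, -0.04 for Tnfrsf10b, -6.78 for Cdkn1a and -1.14 for Mmp2. It was 1.34 for Cd163, 5.62 for Hsd3b5, 0.70 for Igfals, -1.36 for Slc39a5 and -1.77 for Slc16a5. Genotype and age nearly coincide, so these values have wide errors. No paired analysis was possible because replicate numbers only follow accession order and no label ties a KO mouse to a HET mouse.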
